A study of Mus musculus with 12 samples.

Results

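The genes described are the mouse lipoxygenases and the genes of leukotriene synthesis: Alox12, Alox12b, Alox12e, Alox8, Alox15, Aloxe3, Alox5, Alox5ap and Ltc4s. They are 9 of the 18193 genes measured, and they were chosen by symbol, each read from the probe set of highest mean log2 signal among those the platform annotation assigns to that gene alone. Of the 9 genes, 8 had a single such probe set and Alox12 had 2. By their usual site of expression they were split into 5 lipoxygenases of keratinocytes (Alox12, Alox12b, Alox12e, Alox8 and Aloxe3) and 4 members of immune cells (Alox15, Alox5, Alox5ap and Ltc4s).

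The samples are fractions sorted by flow cytometry from the skin of mice that carried 4 transgenes in all 5 groups, K14-CreER with Rosa-tdTomato and K5-tTA with pTRE-H2B-GFP. The keratin 5 promoter drives tTA, so the nuclear green label is laid down in keratin 5 expressing cells. Food with 1 g/kg doxycycline was given over 2 weeks to repress that label. The mice also had a single tamoxifen dose of 75 mg/kg and were studied 1 week afterwards, in the second resting phase of the hair cycle (telogen). The groups were 2 GL, 2 SL LRC, 2 SL non-LRC, 3 BL LRC and 3 BL non-LRC samples. From knowledge of the study, GL, SL and BL are read as the granular, spinous and basal layers of the epidermis and LRC as label-retaining, infrequently dividing cells. The sources used here give neither the ages of the mice nor the sorting gates, nor whether each sample is a separate animal, so every p-value below measures only the spread between these samples.

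Lipoxygenases insert oxygen into polyunsaturated fatty acids. In the upper epidermis Alox12b and Aloxe3 act in sequence on the linoleate of acylceramides, a step needed to build the lipid barrier of the cornified layer, and loss of either impairs that barrier. In leukocytes Alox5 works with its membrane partner Alox5ap to make leukotriene A4, which Ltc4s joins to glutathione as leukotriene C4, while Alox15 makes hydroperoxides of arachidonate and linoleate.

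The 6 lipoxygenase genes other than Alox5 all lie on chromosome 11, as does Ltc4s, whereas Alox5 lies on chromosome 6 and Alox5ap on chromosome 5. A window of 250 bases before to 50 bases after the transcript start was at hand from RefSeq (assembly GRCm38.p6) for 6 of the 9 genes. The windows of 4 genes are shown because their transcripts carried the differences described below. Alox12e differed between the LRC and non-LRC fractions of BL, and Alox12, on its brighter probe set alone, between those of SL. Alox5 and Ltc4s stood high in GL. Capitals mark the letters CCACCC on either strand, which Klf factors of the epidermis can bind. The windows are chr11:70322481-70322780 for Alox12e, chr11:70255321-70255620 for Alox12, chr6:116461129-116461428 for Alox5 and chr11:50238483-50238782 for Ltc4s, each read on the minus strand.
Alox12e: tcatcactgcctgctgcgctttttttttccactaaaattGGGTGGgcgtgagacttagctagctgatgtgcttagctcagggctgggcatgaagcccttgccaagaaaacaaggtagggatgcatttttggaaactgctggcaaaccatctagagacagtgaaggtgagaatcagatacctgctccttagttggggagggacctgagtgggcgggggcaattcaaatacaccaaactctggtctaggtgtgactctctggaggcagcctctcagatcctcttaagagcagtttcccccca
Alox12: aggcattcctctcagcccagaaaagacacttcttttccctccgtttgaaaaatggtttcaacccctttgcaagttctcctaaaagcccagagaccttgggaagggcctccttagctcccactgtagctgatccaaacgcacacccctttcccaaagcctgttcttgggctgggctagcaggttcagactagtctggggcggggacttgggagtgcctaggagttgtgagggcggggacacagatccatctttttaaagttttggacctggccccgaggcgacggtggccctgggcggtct
Alox5: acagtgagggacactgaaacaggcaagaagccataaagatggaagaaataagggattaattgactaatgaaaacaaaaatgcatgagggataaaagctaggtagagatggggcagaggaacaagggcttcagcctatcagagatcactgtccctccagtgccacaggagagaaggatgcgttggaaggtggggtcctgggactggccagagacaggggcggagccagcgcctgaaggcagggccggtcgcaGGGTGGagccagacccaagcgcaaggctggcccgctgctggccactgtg
Ltc4s: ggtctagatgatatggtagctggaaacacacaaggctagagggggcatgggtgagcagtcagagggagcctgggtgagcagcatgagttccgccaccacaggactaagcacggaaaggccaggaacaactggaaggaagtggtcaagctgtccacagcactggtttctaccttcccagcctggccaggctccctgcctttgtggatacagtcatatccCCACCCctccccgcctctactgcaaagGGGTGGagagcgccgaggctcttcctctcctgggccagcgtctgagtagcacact

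Searched on both strands, the Klf letters occurred once each in the windows of Alox12e, Alox8 and Alox5 and on both strands in that of Ltc4s, and in none for Alox12 and Alox12b. They are common letters, held by 31.5% of the 32851 promoter windows of the same length. The other letters searched were TGANTCA for AP-1, held by 7.81% of all promoter windows, AACCGGTT for grainyhead factors (0.146%), GAGGAAGT for PU.1 (3.20%) and, for factors of the Gata family, AGATAA in 11.2%. None of these was found in the 6 windows. A match is a description of the letters, and no match says only that those letters are not in the window.

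The arrays report intensities that the authors scaled to a common trimmed mean, and a background floor was set on each array from probe sets for bacterial transcripts, at 22.4 to 42.6 intensity units. Between 68.1% and 78.4% of genes lay above it. A spiked control (BioB) separated 4 arrays (both SL non-LRC arrays and replicate 1 of each BL group, at 466.8 to 524.4 units) from the other 8 (2885 to 3931 units). These sets are balanced in BL but coincide with LRC and non-LRC in SL, so there the set and the label cannot be told apart. Both GL arrays are in the high set, so GL against SL non-LRC alone is confounded with the set too. SL against BL within a label is partly so. The Y-linked Kdm5d, Uty and Eif2s3y were above the floor on 10 arrays and not on BL LRC 1 and BL non-LRC 1. Granular markers were called higher (limma adjusted p under 0.05) in GL than in BL for 8 of 9 genes, the exception being Tgm3, which was lower. Of 8 basal markers 4 were lower, where 17.1% of all genes were called in GL against BL (8.66% higher). Krt5 differed there by -0.22 ± 0.13 on the log2 scale (moderated standard error, limma adjusted p = 0.271). Against SL, 4 of the 9 granular markers were called higher and 1 lower. Of the 8 basal markers, 1 was higher and 4 lower there, where 8.30% of all genes were called.

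Alox12, Alox12e and Aloxe3 were above the floor on all 12 arrays and Alox12b on 10. Alox5ap was above it on 8, Alox5 on 4, Alox8 on 3, and Alox15 and Ltc4s on 2, which were the GL arrays for both. All 9 genes were above the floor on at least 2 arrays, and all were tested. The 4 immune-cell members reached their highest intensity in GL, while among the keratinocyte members Alox12e was highest in SL non-LRC and Alox12 in SL LRC.

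**Figure D1:**
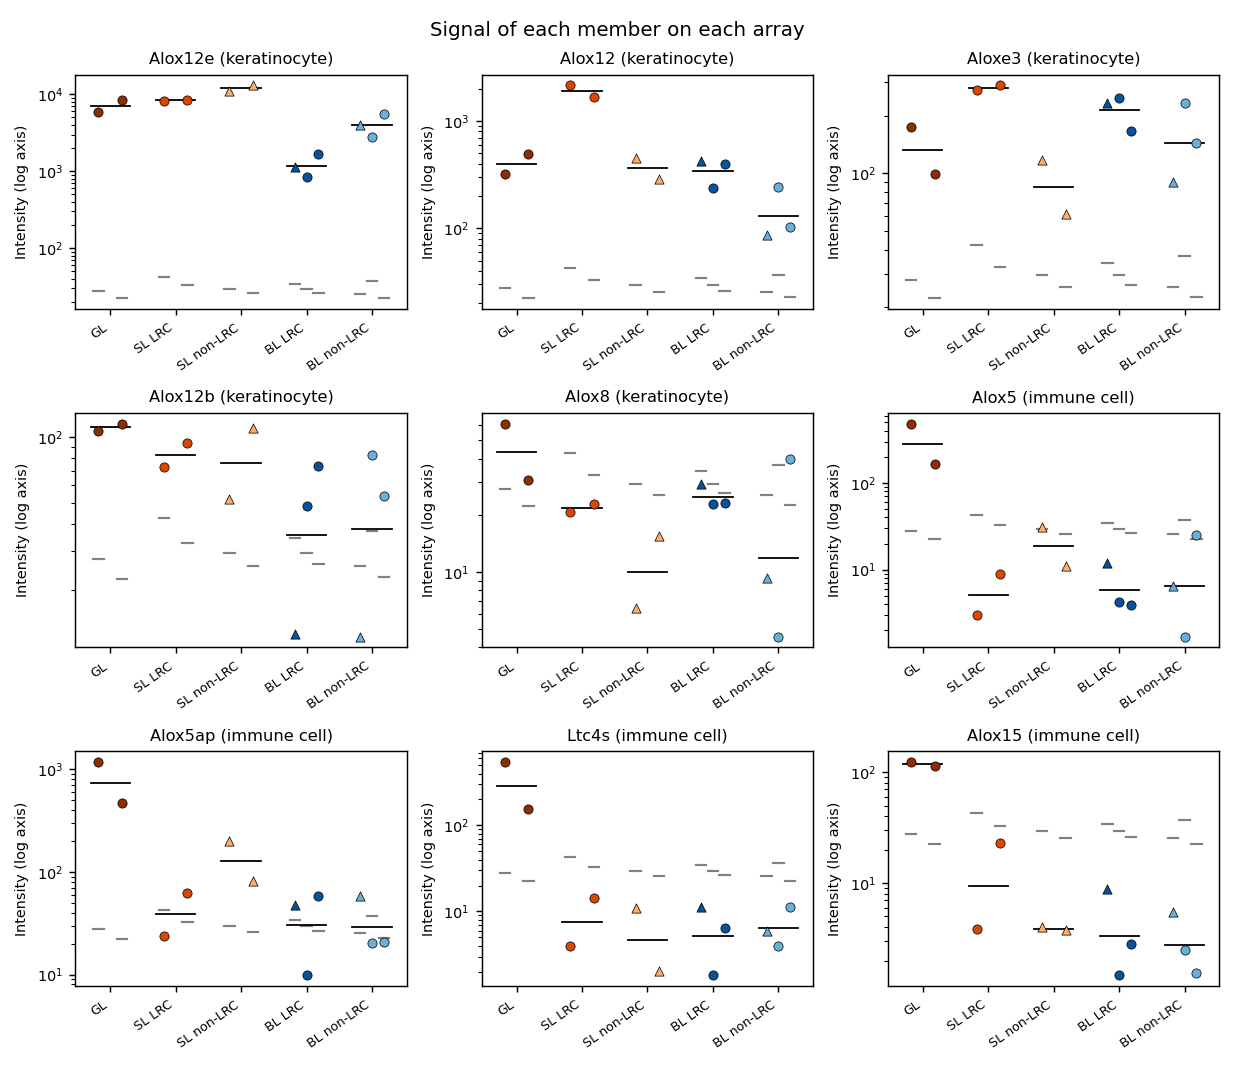
Intensity (log axis, array units) of each of the 9 genes on each of the 12 arrays, by group. Circles are arrays with high BioB signal, triangles those with low BioB signal, grey dashes the background floor of that array and black lines the geometric mean of the group. Alox12e lies above the floor in every group with its lowest values in BL LRC, Alox12 is highest on both SL LRC arrays, and Alox5, Alox5ap, Ltc4s and Alox15 are highest on both GL arrays.

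The plot of intensities by array shows a different profile for each keratinocyte lipoxygenase. Because levels of different probe sets are not comparable, each gene is set only against itself in other groups.

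Alox12e, the epidermis-type 12-lipoxygenase of the mouse, had a lower signal in the label-retaining fraction of the basal layer and a higher signal above it. It read 5956 and 8447 units in GL, 8304 and 8456 in SL LRC, 11028 and 13140 in SL non-LRC, 1123, 829 and 1684 in BL LRC, and 4041, 2811 and 5565 in BL non-LRC. All 3 BL LRC arrays lay below all 3 BL non-LRC arrays, and all 6 BL arrays lay below both GL arrays and all 4 SL arrays. The gene fell in BL LRC against BL non-LRC by 1.78 on the log2 scale (SE 0.25, limma adjusted p = 0.000754), the only 1 of the 9 genes called in that comparison, where 1.53% of all genes were called. In bulk RNA, fewer cells that express a gene and less of its RNA per cell cannot be told apart. The difference was -1.85 between the single low-BioB arrays and -1.74 between the 2 and 2 high-BioB arrays. The call was lost in a fit without a mean-variance trend (adjusted p = 0.0837).

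In SL the difference of Alox12e between SL LRC and SL non-LRC was -0.52 ± 0.31 (adjusted p = 0.429), with both SL LRC arrays below both SL non-LRC arrays. The test of whether the label effect differed between layers gave 1.26 ± 0.39 as SL minus BL (unadjusted p = 0.00558, adjusted p = 0.537). None of the 9 genes was called for that interaction, and 0% of all genes were (1291 genes had an unadjusted p under 0.05). Alox12e rose in SL against BL by 2.22 ± 0.20 (adjusted p = 4.52e-06) and in GL against BL by 1.72 ± 0.25 (adjusted p = 0.000103), and GL against SL gave -0.50 ± 0.26 (adjusted p = 0.305).

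Taken pair by pair, the order of Alox12e from high to low was SL non-LRC, SL LRC, GL, BL non-LRC and BL LRC. Neighbours in the upper part of that order were not separated: SL LRC against SL non-LRC is given above, and GL against SL LRC differed by -0.24 ± 0.31 (adjusted p = 0.748, with 9.37% of all genes called in that pair). GL against BL non-LRC gave 0.83 ± 0.28 (adjusted p = 0.0564, with 14.4% of all genes called), just short of the threshold. SL LRC rose against BL LRC by 2.85 ± 0.28 (adjusted p = 6.92e-05) and SL non-LRC against BL non-LRC by 1.60 ± 0.28 (adjusted p = 0.00548), so the layer difference was called within each label. Of all genes, 2.81% and 1.56% were called in these pairs.

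Markers of the upper hair follicle (infundibulum and isthmus, such as Krt79, Krt17 and Lrig1) had median differences of the same sign as Alox12e in most comparisons. These were both label comparisons, though Alox12e was not called in that of SL, and SL and GL against BL. In GL against SL the signs were opposite. Of 8 such genes, 7 fell in BL LRC and 7 in SL LRC, where 1.53% and 4.19% of all genes were called. Their median log2 differences were -1.35 and -1.51, against 0.05 and 0.00 over all genes. In SL against BL 6 rose, with a median of 1.13, where 5.03% of all genes were called. In GL against BL 6 rose, with a median of 2.14, where 17.1% of all genes were called. In GL against SL 2 rose and none fell, with a median of 0.77, where Alox12e gave -0.50. Their summed intensity was 106695 to 124324 in GL, 49667 to 51192 in SL LRC, 116121 to 120327 in SL non-LRC, 17681 to 19925 in BL LRC and 41685 to 57713 in BL non-LRC, lowest in BL LRC as for Alox12e. Of 8 measured sebocyte markers, 7 fell in BL LRC, 4 fell in SL LRC and none was called in SL against BL. Their summed intensity was 9525 to 13864 in GL, 12039 to 16486 in SL LRC, 21882 to 36984 in SL non-LRC, 7264 to 10216 in BL LRC and 17624 to 49097 in BL non-LRC. The part of these follicle and gland cells in the Alox12e result was not tested.

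Alox12, the platelet-type 12-lipoxygenase, which epidermis also expresses, stood highest in the label-retaining fraction of the spinous layer. Its intensity was 318 and 498 units in GL, 2160 and 1659 in SL LRC, 455 and 291 in SL non-LRC, 425, 237 and 401 in BL LRC, and 86.0, 242 and 104 in BL non-LRC. Both SL LRC arrays exceeded every other array, of which GL 2 was the highest, whereas SL non-LRC, GL and BL LRC overlapped one another. Alox12 rose in SL LRC against SL non-LRC by 2.38 ± 0.47 (adjusted p = 0.00749), again 1 of 9 genes, where 4.19% of all genes were called. This is the comparison in which array set and label coincide. A set term is estimated within BL alone, where the low set is the pair of arrays without Y-linked signal. Such a term cannot separate set from label in SL. With it, Alox12 differed by 2.17 (adjusted p = 0.103). It also lost its call without a mean-variance trend (adjusted p = 0.0846), without SL LRC 1 (adjusted p = 0.0930) or without SL non-LRC 2 (adjusted p = 0.115).

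In the basal layer Alox12 pointed the same way without being called, at 1.41 ± 0.38 in BL LRC against BL non-LRC (adjusted p = 0.0887). BL non-LRC 2, at 242 units, lay inside the range of BL LRC, and without it the difference was 1.86 (adjusted p = 0.0128). Within array sets it was 2.30 between the single low-BioB arrays and 0.96 between the high-BioB arrays. The label effects of the layers differed by 0.97 ± 0.60 (adjusted p = 0.801).

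Alox12 and Alox12e were the 2 of 9 genes called in SL against BL, both higher, where 5.03% of all genes were called. Alox12 rose there by 1.98 ± 0.30 (adjusted p = 0.000652), though the groups overlapped through SL non-LRC. Within labels the layer difference was 2.46 ± 0.43 in SL LRC against BL LRC (adjusted p = 0.00395) and 1.49 ± 0.43 in SL non-LRC against BL non-LRC (adjusted p = 0.106). GL was lower than SL LRC for Alox12 by 2.25 on the log2 scale (SE 0.47, adjusted p = 0.00480), but differed from SL non-LRC by 0.13 ± 0.47 (adjusted p = 0.932, with 4.81% of all genes called in that pair). GL against BL gave 0.92 ± 0.38 (adjusted p = 0.120), and without BL non-LRC 2 it was called at 1.14 (adjusted p = 0.0252). By label, GL rose against BL non-LRC by 1.62 ± 0.43 (adjusted p = 0.0162) and gave 0.21 ± 0.43 against BL LRC (adjusted p = 0.826).

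A second, dimmer Alox12 probe set gave another picture. Its signal was 51.2 and 45.9 units in GL, 54.3 and 51.8 in SL LRC, 85.3 and 60.3 in SL non-LRC, 91.3, 35.9 and 59.2 in BL LRC, and 4.06, 22.7 and 57.1 in BL non-LRC. It was above the floor on 10 of 12 arrays, and both SL LRC arrays lay below both SL non-LRC arrays. On it the SL LRC against SL non-LRC difference was -0.44 (adjusted p = 0.896) and SL against BL 0.96 (adjusted p = 0.555). The mean of both probe sets gave 0.97 (adjusted p = 0.489) and 1.47 (adjusted p = 0.0503). The Alox12 calls therefore hold for the brighter probe set alone.

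Aloxe3, the hydroperoxide isomerase that takes the product of Alox12b, read 176 and 99.8 units in GL, 273 and 289 in SL LRC, 118 and 61.3 in SL non-LRC, 233, 249 and 168 in BL LRC, and 90.1, 233 and 145 in BL non-LRC. Both SL LRC arrays exceeded both SL non-LRC arrays, and the BL groups overlapped. The difference in SL LRC against SL non-LRC was 1.73 ± 0.54 (adjusted p = 0.0864), and that in BL LRC against BL non-LRC was 0.56 ± 0.44 (adjusted p = 0.701). Neither was called, and no layer comparison of Aloxe3 was called (SL against BL -0.19 ± 0.35, GL against BL -0.41 ± 0.44).

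Alox12b, the 12R-lipoxygenase of barrier formation, had 106 and 115 units in GL, 73.0 and 93.9 in SL LRC, 52.0 and 110 in SL non-LRC, 12.5, 48.3 and 73.8 in BL LRC, and 12.2, 82.8 and 53.4 in BL non-LRC. The GL arrays were above all BL arrays. The differences were 1.59 ± 0.78 in GL against BL (adjusted p = 0.197) and 1.11 ± 0.62 in SL against BL (adjusted p = 0.422), and neither was called. The only arrays under the floor were BL LRC 1 and BL non-LRC 1, the same pair that lacked Y-linked signal and had low BioB signal, while the other low-BioB arrays, both SL non-LRC, were above it. With an array-set term the GL against BL difference was 0.81 (adjusted p = 0.444) and SL against BL 1.5 (adjusted p = 0.0762). That term is estimated within BL alone, from BL LRC 1 and BL non-LRC 1 against the other BL arrays. Across the 12 arrays the log2 signals of Alox12b and Aloxe3, enzymes of consecutive steps, had r = -0.01 (0.08 over the 10 arrays without GL).

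Alox8, the mouse 8S-lipoxygenase, which phorbol ester induces in mouse skin, was near the floor. It was above it on both GL arrays (61.3 and 30.7 units) and on BL non-LRC 3 (39.8 units), and on no SL array (6.47 to 22.9 units). Its GL signal was at least 1.36-fold that of SL (adjusted p = 0.378) and was not called against BL (1.33 ± 0.87, adjusted p = 0.362).

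**Figure D2:**
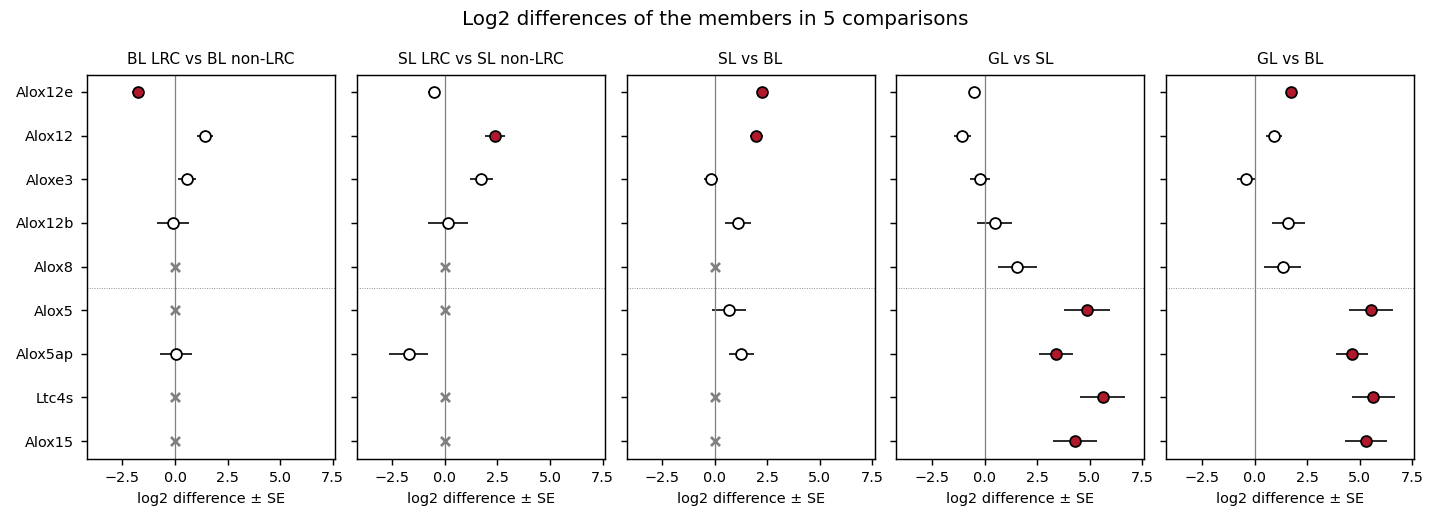
log2 difference of each of the 9 genes in 5 comparisons, with moderated standard errors as bars. Filled red points had a limma adjusted p under 0.05, and open points did not. Grey crosses mark differences with no size, because neither side was above the floor or the bound set by the floor was under 1. Points of Ltc4s and Alox15 in both GL comparisons, and of Alox8 in GL against SL, use reference values under the floor, so their sizes are not measured. Alox12e is called in BL LRC against BL non-LRC, SL against BL and GL against BL, Alox12 in SL LRC against SL non-LRC and SL against BL, and the 4 immune-cell genes in both GL comparisons.

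The plot of differences separates 3 patterns: Alox12e with its lower BL LRC signal, Alox12 with its higher SL LRC signal, and the 4 immune-cell genes with their high GL signal. The Alox12 pattern holds for its brighter probe set alone, in a comparison where array set and label coincide.

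The immune-cell members were highest in GL. On the 10 other arrays Ltc4s and Alox15 were under the floor throughout and Alox5 was above it on 2, whereas Alox5ap was above it on 6, most clearly in SL non-LRC. Alox5, the 5-lipoxygenase, read 484 and 166 units in GL, 2.97 and 8.88 in SL LRC, 31.1 and 11.2 in SL non-LRC, 11.9, 4.19 and 3.91 in BL LRC, and 6.49, 1.69 and 24.9 in BL non-LRC. Alox5ap, the protein that presents arachidonate to it, read 1176 and 464 units in GL, 23.7 and 62.5 in SL LRC, 201 and 81.3 in SL non-LRC, 47.2, 9.90 and 58.6 in BL LRC, and 58.9, 20.1 and 20.6 in BL non-LRC. For both genes the lower GL array exceeded every SL and BL array, and outside GL the highest array was SL non-LRC 1.

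Ltc4s, the leukotriene C4 synthase, read 544 and 154 units in GL, and between 1.83 and 14.2 units on all 10 other arrays, none above the floor. Alox15, the leukocyte-type 12/15-lipoxygenase of the mouse, read 124 and 114 units in GL and between 1.48 and 23.1 on all 10 other arrays, again none above the floor. No order among the other groups can therefore be given for these genes.

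All 4 were called higher in GL against SL, making 4 of 9 genes where 8.30% of all genes were called in either direction (4.39% higher). Ltc4s was at least 9.04-fold higher (adjusted p = 0.00332) and Alox15 at least 3.72-fold higher (adjusted p = 0.0177). Alox5ap rose by 3.40 ± 0.80 on the log2 scale (adjusted p = 0.0132), with 3 of 4 SL arrays above the floor. Alox5 rose by 4.86 ± 1.10 (adjusted p = 0.0103), a size that rests on SL values of which 1 of 4 was above the floor. With values raised to the floor it was 3.13 (adjusted p = 2.11e-05). The 4 calls were all lost without GL 1, which leaves 1 GL sample assumed to vary like the other groups, with adjusted p of 0.173 for Alox5, 0.224 for Alox5ap, 0.0982 for Ltc4s and 0.144 for Alox15. The Alox15 call was also lost without GL 2 (adjusted p = 0.105) or SL LRC 1 (adjusted p = 0.0627), and against SL LRC alone (adjusted p = 0.0773). Against SL non-LRC alone the differences were 2.53 for Alox5ap (adjusted p = 0.141) and 3.93 for Alox5 (adjusted p = 0.0937), neither called. That pair of groups also differs in array set. Without a mean-variance trend Alox5ap was not called (adjusted p = 0.0681).

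Against BL the same 4 genes and Alox12e were called higher in GL, 5 of 9, where 17.1% of all genes were called (8.66% higher). Both GL comparisons use the same GL arrays. Ltc4s was at least 10.1-fold higher (adjusted p = 0.000803) and Alox15 at least 4.13-fold higher (adjusted p = 0.00118). Alox5ap rose by 4.64 ± 0.75 (adjusted p = 0.000304), with 3 of 6 BL arrays above the floor, and Alox5 by 5.53 ± 1.04 (adjusted p = 0.00109), with 1 of 6. Raised to the floor, the Alox5 values gave 3.28 (adjusted p = 1.47e-06). In BL LRC against BL non-LRC, SL LRC against SL non-LRC and SL against BL, none of the 4 was called by limma or had an unadjusted p under 0.05, and the difference of largest size among those measured was that of Alox5ap in SL LRC against SL non-LRC (-1.73 ± 0.92, adjusted p = 0.371).

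Leukocyte markers were high on the same GL arrays. The summed intensity of 10 pan-leukocyte markers was 17511 to 41383 units in GL, 1294 to 1408 in SL LRC, 1666 to 3926 in SL non-LRC, 1100 to 1733 in BL LRC and 1126 to 2221 in BL non-LRC. For 12 Langerhans cell and myeloid markers it was 33820 to 71332 in GL, 1537 to 1995 in SL LRC, 4188 to 10522 in SL non-LRC, 1548 to 2278 in BL LRC and 1876 to 3625 in BL non-LRC. For 9 T cell markers it was 10673 to 31743 in GL, against 3408 to 9709 across the other groups. Of these, Thy1 read 5220 and 1372 units in GL, 1563 to 3351 in SL and 3144 to 7216 in BL, and GL 2 was its lowest array. Cd247 read 756 and 958 units in GL and 882 to 1386 across the other groups. The pan-leukocyte, myeloid and T cell lists rose in GL against SL for 8 of 10, 9 of 12 and 6 of 9 genes. Of all genes, 8.30% were called in that comparison (4.39% higher). The median log2 differences of the lists were 3.70, 3.66 and 4.02, against -0.03 over all genes.

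GL 1 read higher than GL 2 for the immune-cell members and for the sums of these markers, and for some keratinocyte genes as well. The ratio of GL 1 to GL 2 was 3.53 for Ltc4s, 2.92 for Alox5 and 2.53 for Alox5ap, beside 2.36, 2.11 and 2.97 for the summed pan-leukocyte, Langerhans and myeloid, and T cell markers. Alox15 had a ratio of 1.08, unlike the other 3. Among the keratinocyte members it was 2.00 for Alox8, 1.76 for Aloxe3, 0.924 for Alox12b, 0.705 for Alox12e and 0.638 for Alox12. The summed granular markers had a ratio of 1.96, so a higher signal on GL 1 was not limited to leukocyte genes. The sums of mast cell and neutrophil markers had ratios of 1.80 and 1.43. In these sums only 3 of 10 and 2 of 7 genes were above the floor on both GL arrays. SL non-LRC 1, the array of highest Alox5 and Alox5ap outside GL, also had the highest summed pan-leukocyte and myeloid markers outside GL (3926 and 10522 units).

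Mast cells and neutrophils are known sources of leukotrienes. The summed signal of their markers in GL lay within the range of the other groups. For 10 mast cell markers the summed intensity was 178 to 321 units in GL, against 150 to 329 across the other groups, and 4 of the 10 were above the floor on any GL array. The sum of 7 neutrophil markers was 116 to 165 units in GL and 98 to 238 across the other groups, and 3 of the 7 were above the floor on any GL array. Both sums therefore rest largely on genes under the floor in GL. Single members differed: Kit (89.9 and 56.8 units) and Cxcr2 (100 and 30.6 units) were above it on both GL arrays and on 1 SL non-LRC array each. Mcpt4 and Elane were above it on no GL array but on 3 and 5 other arrays. Neither list had a gene called by limma in GL against SL, where 8.30% of all genes were called. In that comparison 0 mast cell and 2 neutrophil markers had an unadjusted p under 0.05. The part of leukocytes in the GL values was not tested.

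**Figure D3:**
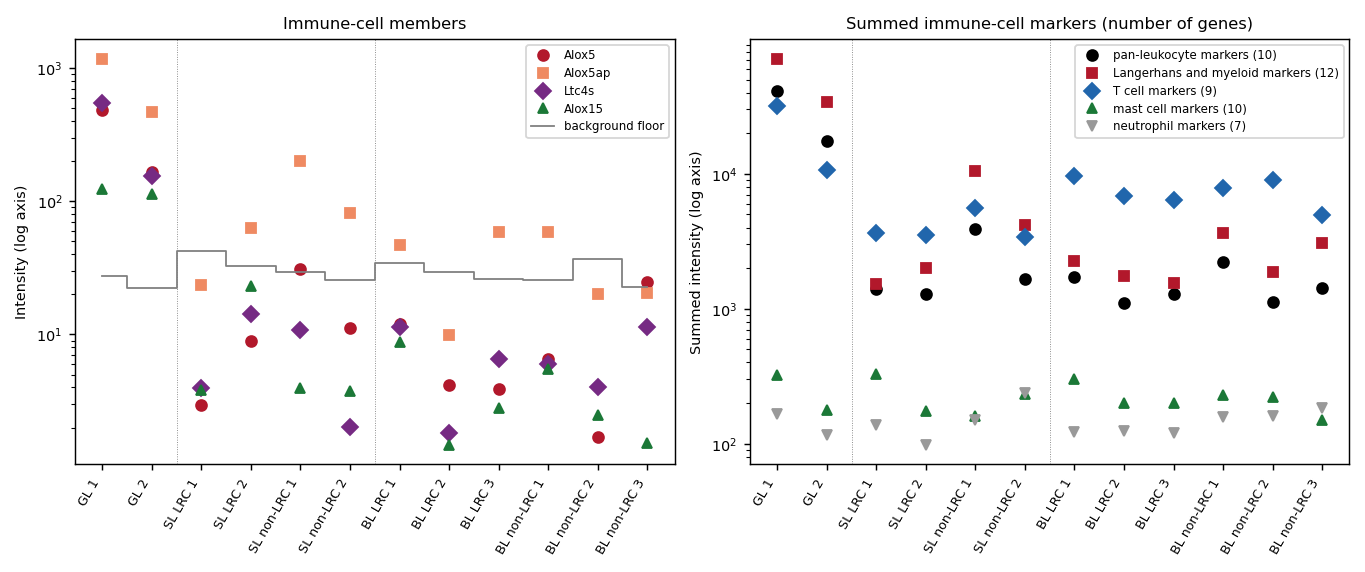
Left, intensity (log axis, array units) of Alox5, Alox5ap, Ltc4s and Alox15 on the 12 arrays, with the background floor as a line. Right, summed intensity (log axis) of pan-leukocyte, Langerhans and myeloid, T cell, mast cell and neutrophil markers on the same arrays. The 4 genes and the first 3 marker lists are highest on both GL arrays, and the mast cell and neutrophil sums stay between 98 and 329 units throughout.

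The plot of immune-cell genes beside marker sums shows that the arrays high in leukotriene synthesis genes are those high in leukocyte markers. Across the 12 arrays Alox5 and Ltc4s had r = 0.90 and Alox5 and Alox5ap r = 0.87, but 0.53 and 0.55 over the 10 arrays without GL, where most values are under the floor. Arrays of a group share a fraction, so these are descriptions.

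Genes of most similar pattern were listed by Pearson's r of log2 signal over the 12 arrays, among 13613 genes above the floor on at least 6 arrays. For Alox12e these were Rgs20 (r = 0.977), Krt79 (0.947), Orm1 (0.941), Rgma (0.936) and Me1 (0.935). Krt79, a keratin of the hair follicle infundibulum, read 20541 and 18767 units in GL, 9007 and 7563 in SL LRC, 21361 and 21776 in SL non-LRC, 829, 823 and 1008 in BL LRC, and 4922, 4481 and 8887 in BL non-LRC. As for Alox12e, its lowest 3 arrays were those of BL LRC and its highest pair those of SL non-LRC. Krt79 was listed for its similarity on these arrays, so the shared order follows from that choice.

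For Alox12 the most similar were Cyp4f39 (r = 0.960), Abhd6 (0.958), Krt80 (0.957), Slc12a2 (0.953) and Calm4 (0.953). Cyp4f39, the fatty acid omega-hydroxylase of acylceramide synthesis, read 486 and 524 units in GL, 1024 and 1366 in SL LRC, 478 and 406 in SL non-LRC, 461, 430 and 403 in BL LRC, and 200, 290 and 171 in BL non-LRC. Both SL LRC arrays were highest and the BL non-LRC arrays lowest. Over the 10 arrays without GL, which were also used to pick these genes, r was 0.97 for both Krt79 with Alox12e and Cyp4f39 with Alox12. The nearest genes to Alox12b were Inpp4a (0.922), the Y-linked Kdm5d and Uty (0.914 each), Zswim6 (0.906) and Vipas39 (0.903). Kdm5d and Uty, like Alox12b, were under the floor on BL LRC 1 and BL non-LRC 1 and on no other array. For Aloxe3 the list was Ldhc (0.908), Zfp638 (0.899), Uckl1 (0.897), Klhl17 (0.896) and Cep290 (0.894), and Alox5ap was nearest to Septin3 (0.963), Prkcb (0.959), Ffar2 (0.957), Anxa9 (0.954) and Gm26911 (0.947).

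**Figure D4:**
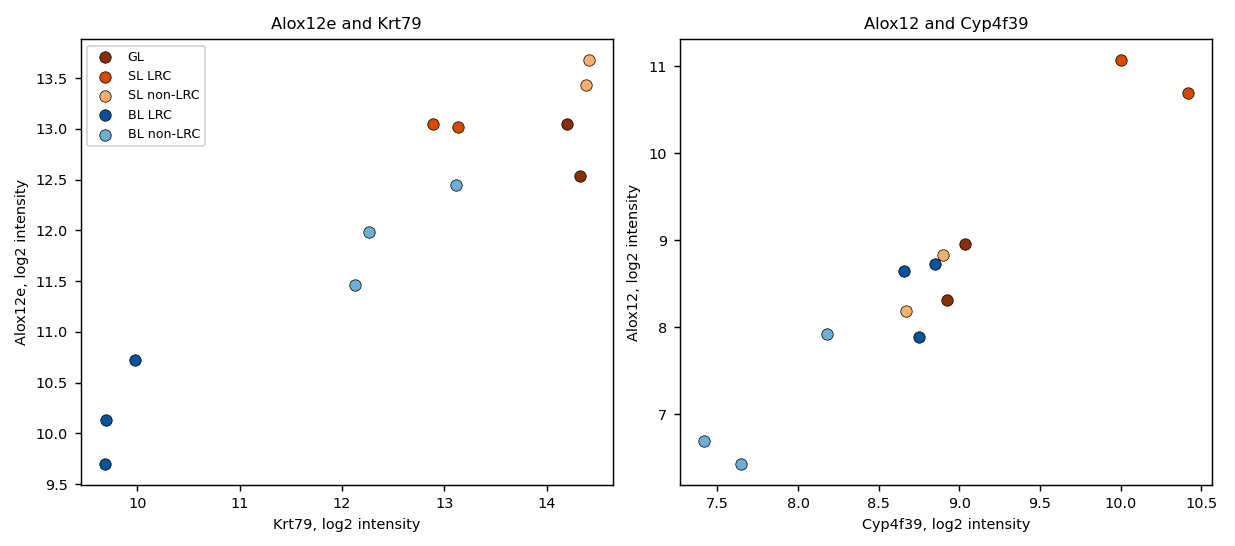
log2 intensity of Krt79 against Alox12e (left) and of Cyp4f39 against Alox12 (right) on each of the 12 arrays, coloured by group. BL LRC arrays lie at the low end of the Alox12e and Krt79 plot, and the SL LRC arrays lie apart at the high end of the Alox12 and Cyp4f39 plot.

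The plots of nearest patterns place the groups in a different order for each lipoxygenase. Alox12e and Alox12 themselves had r = 0.28 over the 12 arrays and over the 10 without GL.

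Genes of the epidermal barrier set beside Alox12b and Aloxe3 were read as a list, of which 20 of 22 were measured. The list covers acylceramide synthesis and the turnover of hepoxilin-type products. It also holds barrier genes with other roles, among them Casp14, Sult2b1, Acer1 and Tgm1, so its counts do not describe acylceramide synthesis alone. In SL against BL 10 of the 20 were called higher and none lower, where 5.03% of all genes were called (median log2 difference 0.89, against 0.00 over all genes), while Alox12b and Aloxe3 were not called. Ephx3, the epoxide hydrolase that acts after Aloxe3, rose by 2.36 ± 0.26 (adjusted p = 3.76e-05). Sult2b1, the cholesterol sulfotransferase, rose by 2.30 ± 0.34 (adjusted p = 0.000505), and Cyp4f39 by 1.25 ± 0.21 (adjusted p = 0.00126).

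In SL LRC against SL non-LRC 4 of the 20 rose and none fell, where 4.19% of all genes were called (median 0.75, against 0.00). They were Elovl4, the elongase of very long chain fatty acids (1.73 ± 0.26, adjusted p = 0.00118), Casp14, a protease of filaggrin processing (1.61 ± 0.28, adjusted p = 0.00358), Cyp4f39 (1.42 ± 0.32, adjusted p = 0.0161) and Acer1, the alkaline ceramidase (1.02 ± 0.20, adjusted p = 0.00756). Array set and label coincide in that SL comparison. In BL LRC against BL non-LRC Elovl4 rose by 1.05 ± 0.21 (adjusted p = 0.0173) and Acer1 by 0.86 ± 0.16 (adjusted p = 0.0107), 2 of the 20, where 1.53% of all genes were called, with a median of 0.61 against 0.05. Elovl4 read 9436 and 10159 units in SL LRC against 3380 and 2594 in SL non-LRC, and 2810, 2935 and 4552 in BL LRC against 1552, 2150 and 1278 in BL non-LRC. The groups did not overlap in either layer. Spinous markers rose in the same comparisons, 3 of 8 in SL LRC (median 0.57) and 2 of 8 in BL LRC (median 0.47), with none lower, while the infundibulum and isthmus markers fell as given above. The summed intensity of the spinous markers was 109598 to 114341 units in GL, 135655 to 145128 in SL LRC, 83921 to 97963 in SL non-LRC, 90991 to 112673 in BL LRC and 62078 to 83360 in BL non-LRC. The part of spinous and follicle cells in the differences of the 20 barrier genes was not tested.

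In GL against SL none of the 20 was called higher by limma and 2 fell (5 of the 20 had an unadjusted p under 0.05, and 8.30% of all genes were called), Abhd5 by 1.12 (SE 0.16, adjusted p = 0.000315) and Acer1 by 1.03 (SE 0.17, adjusted p = 0.00120) on the log2 scale. In GL against BL 12 rose and 1, Abhd5, fell, where 17.1% of all genes were called (median 0.91, against -0.02).

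**Figure D5:**
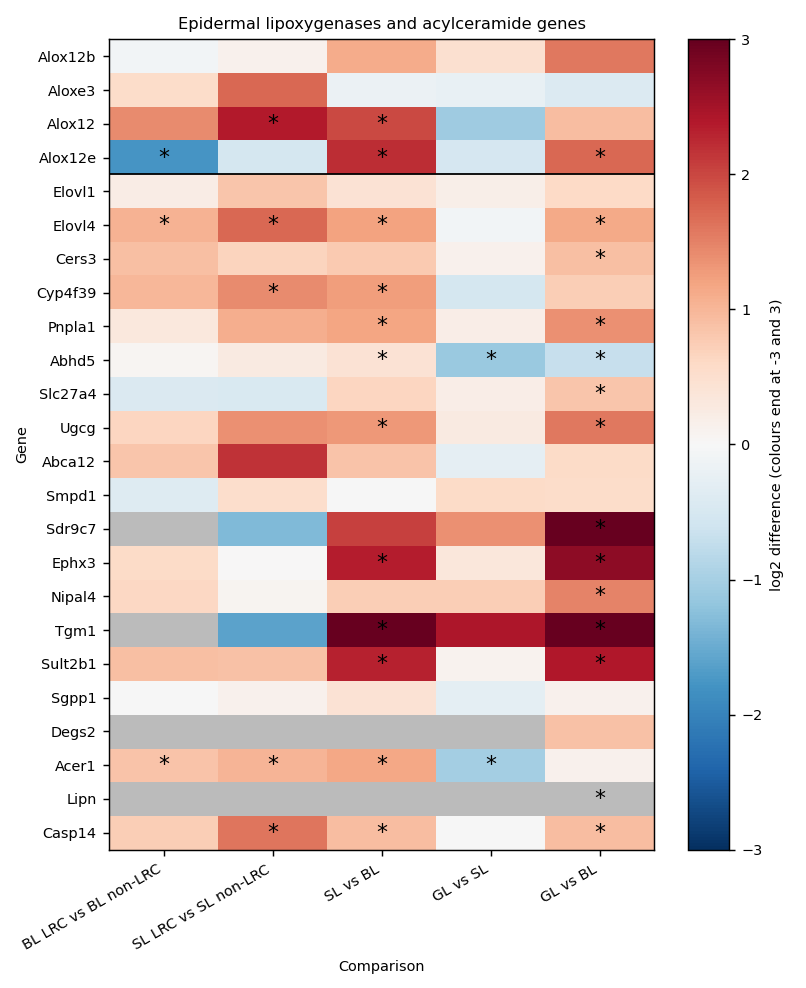
log2 differences of Alox12b, Aloxe3, Alox12 and Alox12e (top 4 rows) and of the 20 measured genes of the list of acylceramide, hepoxilin and other barrier genes in 5 comparisons. Colours end at -3 and 3, and asterisks mark a limma adjusted p under 0.05. Grey cells have no size, because neither side was above the floor or the bound set by the floor was under 1. The SL against BL column has 10 asterisks among the 20 genes and the GL against SL column has 2, both on lower values.

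The colour map sets these genes beside the lipoxygenases. Elovl4 and Acer1 carry an asterisk in both label comparisons, and Alox12b and Aloxe3 in none of the 5.

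Among the 34 measured of 40 genes of eicosanoid supply, synthesis, receptors and breakdown, the arm after leukotriene A4 was mostly without calls. Lta4h, the leukotriene A4 hydrolase, gave 0.78 ± 0.35 in GL against SL (adjusted p = 0.208). Mgst2, a microsomal enzyme able to make leukotriene C4, gave -0.34 ± 0.30 (adjusted p = 0.602). Mgst3, another such enzyme, fell by 1.00 on the log2 scale (SE 0.18, adjusted p = 0.00200). Lta4h, Mgst2, Ggt5, Dpep1, Ltb4r1 and Cysltr2 were called in none of the 5 comparisons. Ggt5 and Dpep1 were above the floor on 7 of 12 arrays each and Cysltr2 on 8, so a missing call says little for them. Ggt5 read 134 and 88.1 units in GL and 5.7 to 75.1 on the other arrays.

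Cysltr1, the high-affinity receptor for cysteinyl leukotrienes, was low in GL, where Ltc4s was high. It read 52.8 and 31.8 units in GL, 620 and 315 in SL LRC, 469 and 181 in SL non-LRC, 1069, 1394 and 1339 in BL LRC, and 772, 1018 and 698 in BL non-LRC. Every BL array exceeded every SL array and every SL array exceeded both GL arrays. Cysltr1 fell in SL against BL by 1.5 (SE 0.28, adjusted p = 0.00401), in GL against SL by 3.13 (SE 0.38, adjusted p = 7.46e-05) and in GL against BL by 4.63 (SE 0.36, adjusted p = 1.39e-07) on the log2 scale. Its differences by label were 0.62 ± 0.36 in BL (adjusted p = 0.570) and 0.60 ± 0.44 in SL (adjusted p = 0.563).

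Pla2g4f, a cytosolic phospholipase that releases fatty acids from membranes, was higher in label-retaining cells of both layers. It read 2329 and 2323 units in SL LRC against 434 and 247 in SL non-LRC, and 709, 1067 and 1074 in BL LRC against 334, 318 and 418 in BL non-LRC, with 443 and 587 in GL. The groups did not overlap in either layer. The differences were 2.83 ± 0.32 in SL (adjusted p = 0.000118) and 1.40 ± 0.26 in BL (adjusted p = 0.00900). In SL the array set and the label coincide. Over the 34 genes, 2 rose and 2 fell in SL LRC, where 4.19% of all genes were called (median 0.32, against 0.00). In BL LRC 1 rose and 2 fell, where 1.53% were called (median 0.33, against 0.05). In SL against BL 1 rose and 3 fell, where 5.03% of all genes were called, with a median of -0.10. In GL against SL 3 rose and 4 fell, where 8.30% were called, with a median of 0.26. In GL against BL 4 rose and 7 fell, where 17.1% were called, with a median of 0.02.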

How the data were processed

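The 12 arrays are single-colour Affymetrix-type arrays of 45101 probe sets. Per the labels, 5 ng of total RNA was amplified (NuGEN Ovation Pico WTA) and then biotin-labelled. The deposited values are linear intensity values. The authors had scaled each array so that its 2% trimmed mean, recomputed from all probe sets, is 500.0. The summarisation software is not given in the sources used here. Of the probe sets, 64 are controls, 34945 map to 1 gene by GEO's platform annotation, 932 to several and 9160 to none. The best of each gene's single-gene probe sets by mean log2 was kept, giving 18193 genes. The design assumed log2 values, so log2 was taken with nothing added. Scanner-level data were not used here.

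The floor on each array was the 95th percentile of 27 bacterial probe sets. A fold is "at least" where 1 side was never above it, and none is given where neither was or where that bound was under 1. limma 3.58.1 in R 4.3.3 fitted 5 group means over 12 arrays with variance moderation along mean signal, and p-values were adjusted by Benjamini-Hochberg across the 18193 genes (threshold 0.05). SL and BL each stand for the mean of their LRC and non-LRC groups. Errors are moderated standard errors. The number of arrays limits the precision. The fit was tested on simulated data. Named genes are the 9 members, the 5 genes of nearest pattern, and list members with the smallest p or a stated role. Krt79, Cyp4f39 and the leukotriene genes without calls were singled out after their values were seen. The members and gene lists were chosen with earlier results of these data known. Alternatives left out each array, and changed centring, filter, floor, probe set, variance model and array set. Figures used Python 3.11.15 and matplotlib 3.10.9.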

Additional observations from a re-analysis of the deposited data

How the results depend on the processing

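The number of the 9 genes called moved under some settings. In BL LRC against BL non-LRC it was 1, then 0 without a mean-variance trend and 1 to 2 when each array was left out. In SL LRC against SL non-LRC it was 1, then 0 with an array-set term, with the mean of all probe sets, without a mean-variance trend or with the other Alox12 probe set, and 0 to 1 when each array was left out. In SL against BL it was 2, then 1 with the mean of all probe sets, in the non-LRC arrays alone or with the other Alox12 probe set, and 2 to 2 when each array was left out. In GL against SL it was 4, then 2 against SL non-LRC alone (Alox15 and Ltc4s), 3 without a mean-variance trend (Alox5ap lost), 5 with only the groups compared (Alox12 lower, adjusted p = 0.0469), 4 against SL LRC alone (Alox12 in place of Alox15), and 0 to 4 when each array was left out. In GL against BL it was 5 under the other settings run, though against BL non-LRC alone Alox12 took the place of Alox12e, and 5 to 6 when each array was left out. Alox12 changed sign in GL against SL non-LRC alone (0.13, adjusted p = 0.932) and, on its other probe set, in SL LRC against SL non-LRC (-0.44, adjusted p = 0.896). Settings chosen after seeing the data were the other Alox12 probe set, single-label arrays and high-BioB arrays alone. Same-numbered arrays had deviations correlated at -0.04 to 0.11 over 21 pairs, 1 of them over 0.1. That pair was BL LRC 1 and BL non-LRC 1, which share the lack of Y-linked signal, and the other BL pairs had 0.05 and 0.06, so these values do not settle whether BL samples of 1 number share an origin. With the replicate block the counts were 1, 1, 2, 4 and 5. Counts of all genes called were 279, 763, 915, 1510 and 3106 in these 5 comparisons, and without a mean-variance trend 72, 150, 374, 713 and 2220. Median centring moved the median of all genes to 0.13 in SL LRC against SL non-LRC, -0.19 in GL against SL and -0.16 in GL against BL. With 2 arrays in 3 groups, signals near the floor limit what can be called for Alox8, Alox5, Ltc4s and Alox15.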

Other observations

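Some genes of the prostaglandin arm of the same fatty acid pathway were called, in both directions. Only called genes are named here, picked from the 34 measured eicosanoid genes, leukotriene genes among them. Of those 34, 3 rose and 4 fell in GL against SL, where 8.30% of all genes were called. In GL against BL 4 rose and 7 fell, where 17.1% were called. Ptgs2, the inducible cyclooxygenase, was under the floor on both GL arrays (2.83 and 6.76 units) and read 55.1 and 92.8 in SL LRC, 93.1 and 38.1 in SL non-LRC, 106, 314 and 209 in BL LRC, and 108, 217 and 84.2 in BL non-LRC. It was at least 2.62-fold lower in GL than in SL (adjusted p = 0.00158) and at least 6.21-fold lower than in BL (adjusted p = 2.32e-05). Ptges, a prostaglandin E synthase, fell in GL against SL by 1.30 on the log2 scale (SE 0.29, adjusted p = 0.00861). Ptgds, a prostaglandin D synthase, rose there by 2.79 ± 0.74 (adjusted p = 0.0267). Ptger3, a prostaglandin E receptor, was at least 4.33-fold higher (adjusted p = 0.0167).

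Hpgd, the dehydrogenase that inactivates prostaglandins, read 154, 110 and 138 units in BL LRC against 667, 704 and 520 in BL non-LRC, and fell by 2.24 on the log2 scale (SE 0.34, adjusted p = 0.00133). Hpgds, the other prostaglandin D synthase, read 6645 and 4672 units in SL LRC against 1704 and 413 in SL non-LRC and rose by 2.73 ± 0.55 (adjusted p = 0.00843). Ephx2, the soluble epoxide hydrolase, fell in BL LRC by 1.84 (SE 0.37, adjusted p = 0.0147) and in SL LRC by 2.16 (SE 0.45, adjusted p = 0.0108), and rose in GL against SL by 1.46 ± 0.39 (adjusted p = 0.0300). Of all genes, 1.53% were called in BL LRC against BL non-LRC and 4.19% in SL LRC against SL non-LRC. In SL the array set and the label coincide, so the SL differences of Hpgds and Ephx2 cannot be told apart from the set.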
